A study of Homo sapiens with 27 samples.

Results

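The genes described here are 49 genes of mitosis, the stage at which a cell parts its copied chromosomes between daughter cells. They were taken by symbol from a table of RNA-seq counts in MCF10A, an established non-tumorigenic line of human mammary epithelium, and rows that shared a symbol were summed. All 49 genes were found, in 51 rows of the table, and all 49 passed the filter on low counts, within 15575 genes tested. The list was drawn up by known function, but with earlier results of these data known.

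Entry into mitosis is driven by the kinase CDK1 bound to cyclins A and B, and the same transcripts are kept low in resting cells and rise as cells pass from DNA replication toward division. The factors MYBL2 (B-MYB) and FOXM1, together with the MuvB complex, activate many of these genes late in the cell cycle, and MuvB in its resting form, the DREAM complex, represses them. MCF10A cells need epidermal growth factor (EGF) for sustained growth in culture, transforming growth factor beta (TGFB) is known to restrain the growth of many epithelial cells, and oncostatin M (OSM) is a cytokine of the interleukin-6 family.

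All cells were first grown in medium with horse serum, hydrocortisone, cholera toxin, insulin and 20 ng/ml EGF, then washed and held for 18 h in medium lacking growth factors. The group labelled T0 had no treatment and is taken here as the state at ligand addition. The other groups received fresh medium lacking growth factors with phosphate-buffered saline (PBS), EGF, OSM, TGFB, EGF+OSM, EGF+TGFB, OSM+TGFB or EGF+OSM+TGFB, each ligand at 10 ng/ml, and were profiled after 24 h. Every one of the 9 groups had 3 libraries of polyadenylated RNA from this single cell line, and the question posed by the series is whether the ligands add up. The labels do not say that the replicates were separate cultures, so every p-value below measures only the spread between these libraries.

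Library totals ran from 30143162 to 52947078 counts, and levels are given as CPM (counts per 1000000) after scaling for library composition. The libraries numbered 3 stood apart for these genes. In OSM, EGF+TGFB, OSM+TGFB and EGF+OSM+TGFB, replicate 3 held the highest level of all 49 genes, and the median gene lay 0.40, 0.58, 0.52 and 0.50 log2 units above the mean of replicates 1 and 2, respectively. The counts of mitosis genes called are therefore also given without the libraries numbered 3; the further gene lists at the end were not recounted in that way. The basal epithelial keratins KRT5, KRT14 and KRT17 were abundant in every library (at least 3310, 561 and 2280 CPM). The leukocyte markers PTPRC and CD3E stayed at or below 0.225 and 0.125 CPM, the endothelial marker CDH5 at or below 0.144 CPM and the fibroblast collagen COL3A1 at or below 0.0581 CPM. Other members of these marker lists were detected. CD14 and CD68 (immune) reached 79.3 and 50.4 CPM, COL1A1 and DCN (fibroblast) 118 and 103 CPM, and KDR (endothelium) 31.3 CPM. Among general epithelial markers CDH1 was at 143 to 676 CPM, EPCAM at 2.72 to 18.6 CPM and KRT19 at or below 0.755 CPM.

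The mitosis genes followed nearly the same order of groups, gene after gene. Summed over the 49 genes, the level was 6390, 6590 and 7060 CPM in the 3 EGF+OSM libraries, 5250, 5400 and 6000.0 CPM with EGF, and 3500, 3250 and 4380 CPM with OSM. It was 2680, 2470 and 3640 CPM with EGF+TGFB, 2700, 2490 and 3660 CPM with EGF+OSM+TGFB, 2260, 1720 and 1870 CPM in T0, and 979, 1020 and 1440 CPM with OSM+TGFB. It was lowest in PBS (429, 349 and 448 CPM) and TGFB (312, 288 and 338 CPM). Thus the sum was higher in every EGF or EGF+OSM library than in any library of the other groups, and lower in every PBS or TGFB library than anywhere else. The EGF+TGFB and EGF+OSM+TGFB groups overlapped almost fully.

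Gene by gene, the mean of EGF+OSM ranked first for 48 of the 49 genes and EGF second for 47. OSM took the third place for 42, T0 sixth for 44, and OSM+TGFB seventh for all 49. TGFB and PBS were the lowest 2 groups for all 49 genes, with TGFB the lower of the pair for 44. The exception at the top was SPC24, a subunit of the NDC80 kinetochore complex, whose mean was 19.5 ± 1.60 CPM with EGF and 18.4 ± 0.737 CPM with EGF+OSM (SD, n = 3), a difference within the spread. These ranks describe means; the tests of neighbouring groups are given with each comparison.

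**Figure D1:**
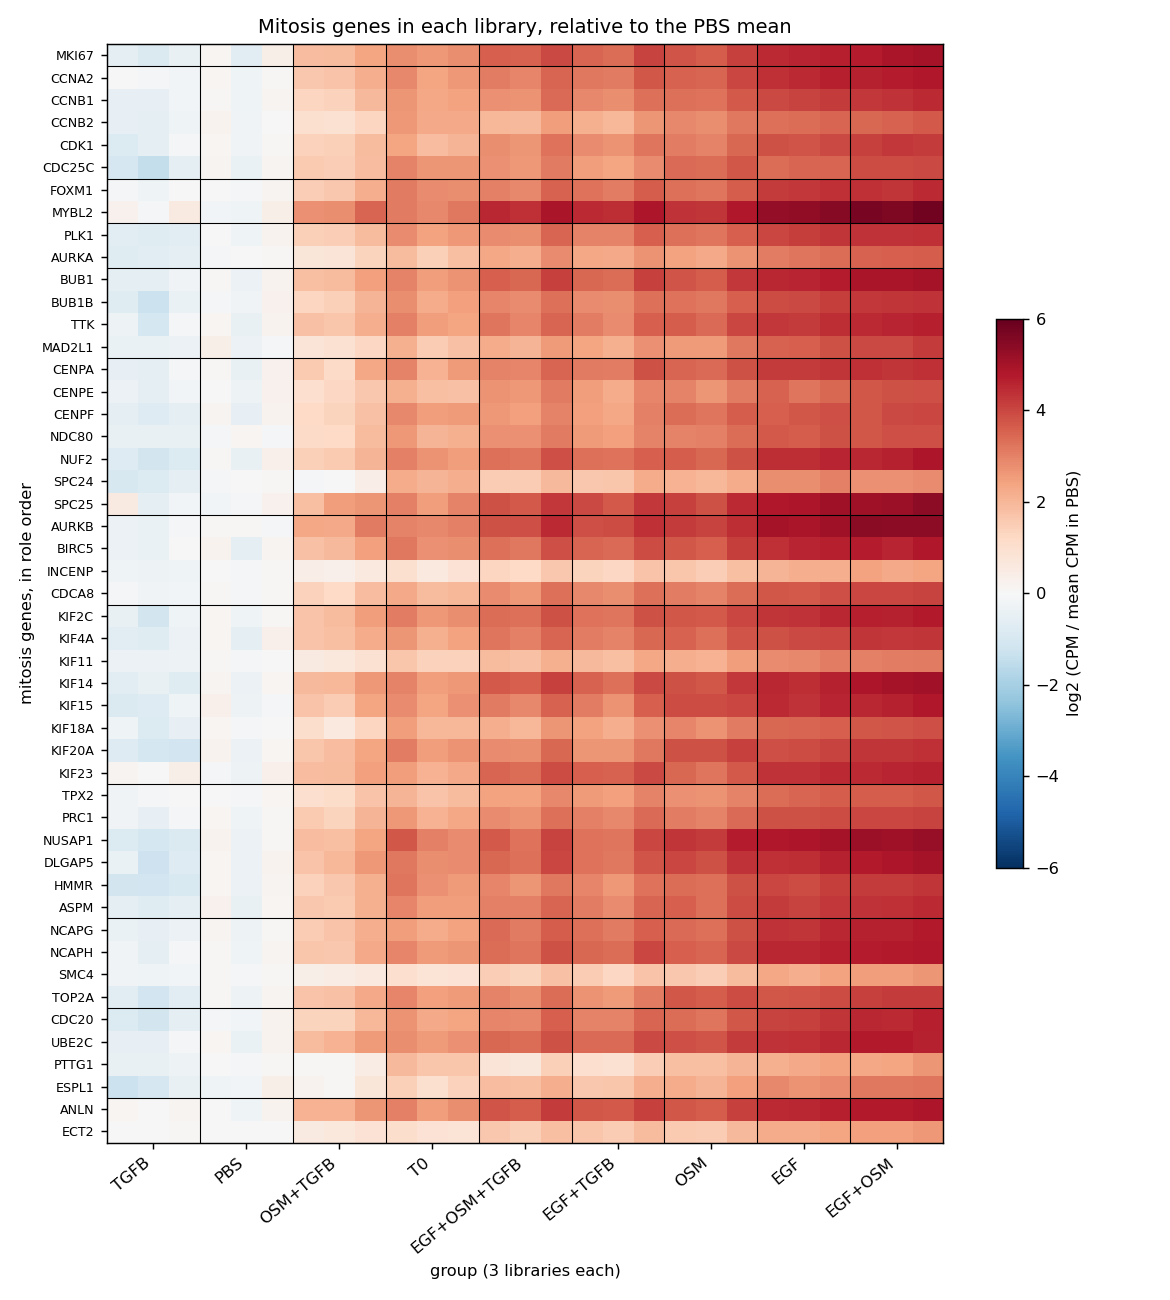
Level of each of the 49 mitosis genes (rows, grouped by role) in each of the 27 libraries (columns, 3 per group), as log2 of CPM over the mean CPM in PBS. Red is above and blue below the PBS mean; the EGF and EGF+OSM columns are darkest in nearly all rows, and replicate 3 of OSM and of each combination with TGFB is shifted toward red.

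Because the genes moved together, their promoters were searched for short elements tied to cell-cycle control. RefSeq windows (GRCh38.p14) from 250 bases before to 50 bases after the start matched 43 of the 49 genes, with 51 windows. The core of the cell-cycle genes homology region (CHR), a MuvB contact, was searched as TTTGAA on both strands, and the box bound by the factor NF-Y as CCAAT on both strands. TTTGAA occurred in 35 of the 51 windows (68.6%), against 15.2% of all 35116 promoter windows of that length. CCAAT occurred in 37 windows (72.5%), against 34.6% of all windows, and both together in 27 (52.9%), against 5.9%. A TTTGAA starting within the last 50 bases before the start was present in 20 windows (39.2%), against 2.6% of all windows. The E2F forms TTTGGCGC, TTTCCCGC, TTTCGCGC and TTTGCCGC, on either strand, were found in 5 windows (9.8%), against 3.3%. A match is a description of letters and does not show that a factor binds.

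The windows below, the 130 bases just before the start, were chosen to show how these elements are laid out in genes of different roles: the mitotic cyclins CCNB2 and CCNB1, the kinase PLK1, the anaphase activator CDC20, the chromosome motor KIF4A and the spindle bundling protein PRC1. Capitals mark TTTGAA or CCAAT on either strand (TTCAAA or ATTGG when read on the other strand), and each sequence runs 5′ to 3′ along the gene's own strand. CCNB2 lies at chr15:59105016-59105145 (plus strand), CCNB1 at chr5:69167020-69167149 (plus), PLK1 at chr16:23678759-23678888 (plus), CDC20 at chr1:43358851-43358980 (plus), KIF4A at chrX:70289974-70290103 (plus) and PRC1 at chr15:90994536-90994665 (minus).
CCNB2: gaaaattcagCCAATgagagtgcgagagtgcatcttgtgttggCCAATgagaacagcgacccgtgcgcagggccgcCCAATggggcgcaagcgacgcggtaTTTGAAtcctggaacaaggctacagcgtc
CCNB1: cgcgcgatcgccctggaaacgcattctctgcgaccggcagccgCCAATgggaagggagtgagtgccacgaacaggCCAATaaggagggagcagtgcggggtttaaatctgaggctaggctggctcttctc
PLK1: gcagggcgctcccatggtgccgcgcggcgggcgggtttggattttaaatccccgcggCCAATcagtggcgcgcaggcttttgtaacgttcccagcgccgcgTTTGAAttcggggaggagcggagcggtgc
CDC20: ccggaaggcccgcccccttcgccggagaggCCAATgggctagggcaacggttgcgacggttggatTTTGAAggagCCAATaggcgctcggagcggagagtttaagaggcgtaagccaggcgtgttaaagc
KIF4A: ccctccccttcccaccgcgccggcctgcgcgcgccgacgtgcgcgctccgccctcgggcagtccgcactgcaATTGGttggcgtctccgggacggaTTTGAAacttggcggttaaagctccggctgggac
PRC1: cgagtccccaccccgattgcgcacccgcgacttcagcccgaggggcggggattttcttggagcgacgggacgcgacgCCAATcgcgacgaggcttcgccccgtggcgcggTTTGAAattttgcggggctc

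In CCNB2 and PLK1 the TTTGAA started 29 bases before the start, in KIF4A 34 bases, in PRC1 20 bases and in CDC20 65 bases before it. CCNB1 carried a pair of CCAAT boxes and no TTTGAA in the window searched. Of the 43 matched genes, 11 had no TTTGAA in the window: AURKB, BUB1, CCNA2, CCNB1, CENPE, KIF20A, KIF2C, MYBL2, NCAPH, PTTG1 and SPC24. Only the exact letters TTTGAA were searched, so a CHR core in another spelling would not be counted. Since every one of the 49 genes rose with EGF and with OSM (below), a rise cannot tell genes with and without a match apart.

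**Figure D2:**
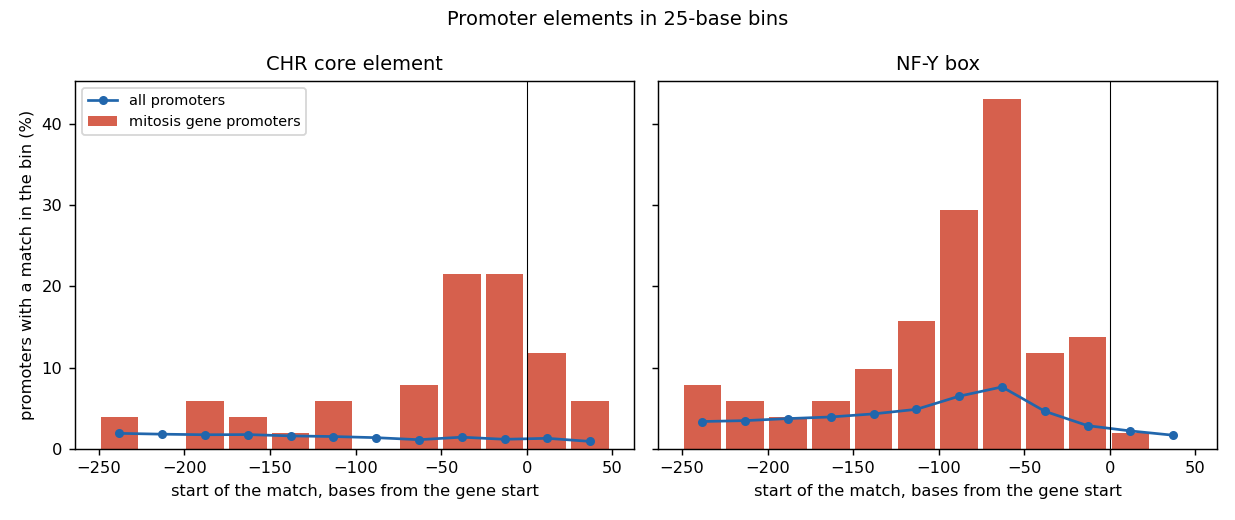
Share of promoter windows (y axis, percent) with a match starting in each 25-base bin (x axis, bases from the gene start) for the CHR core element (left) and the NF-Y box (right). Bars are the 51 windows of the mitosis genes and the blue line is all 35116 windows; the bars are highest in the last 50 bases before the start for the CHR core and between 100 and 50 bases before the start for the NF-Y box.

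Without a ligand, the mitosis genes fell. In PBS against T0, all 49 genes were lower at an adjusted p under 0.05 by edgeR's quasi-likelihood test, where 18.9% of all genes tested were lower. The median gene fell by 2.63 on the log2 scale, to 16.2% of its T0 level, while the median of all genes tested was -0.01. The count was 49 without the libraries numbered 3. In bulk RNA, fewer cells in mitosis and less of each RNA per cell cannot be told apart, here or in any comparison below.

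The fall was deepest for NUSAP1, a microtubule-bundling protein of the spindle, which stood at 23.4, 14.2 and 12.5 CPM in T0 and at 2.05, 1.36 and 1.86 CPM in PBS. Its log2 fold change was -3.26 ± 0.31 (SE, edgeR adjusted p = 7.8e-08). The shallowest was INCENP, the scaffold of the chromosomal passenger complex, with 36.7, 28.9 and 34.5 CPM in T0 and 18.8, 18.4 and 20.2 CPM in PBS (log2 fold change -0.80 ± 0.12, edgeR adjusted p = 1.0e-05). The groups did not overlap for either gene. Besides INCENP, the smallest falls were those of the condensin subunit SMC4 (-0.90) and of ECT2, which activates RhoA at the division plane (-0.93). The transcription factor genes fell steeply: MYBL2 by 3.06 and FOXM1 by 2.93 on the log2 scale. Within the passenger complex itself the falls were uneven, since AURKB, its kinase, fell by 2.96 and BIRC5 (survivin) by 2.92.

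EGF and OSM each raised every mitosis gene above PBS. All 49 were called higher with EGF, with 34.9% of all genes tested higher, and all 49 with OSM, with 33.5% of all genes tested higher (edgeR). The median gene was 4.08 log2 units, or 16.9-fold, above PBS with EGF and 3.50 log2 units, or 11.3-fold, with OSM. No EGF or OSM library overlapped with PBS for any of the 49 genes, where 35.7% and 34.5% of all genes tested were higher with no overlap. Both counts were 49 without the libraries numbered 3. These comparisons share the PBS libraries, so their sizes are set side by side only as values; the direct test of OSM against EGF follows further on.

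The marker of cycling cells MKI67 (Ki-67), a protein that coats mitotic chromosomes, shows the pattern. It was at 23.7, 13.7 and 27.3 CPM in PBS, 478, 521 and 556 CPM with EGF, and 291, 265 and 371 CPM with OSM. Its levels elsewhere were 149, 129 and 149 CPM in T0, 14.2, 11.7 and 15.8 CPM with TGFB, and 562, 646 and 693 CPM with EGF+OSM. With TGFB in the mixture it was at 240.0, 219 and 358 CPM (EGF+TGFB), 76.8, 79.9 and 113 CPM (OSM+TGFB), and 256, 248 and 337 CPM (EGF+OSM+TGFB). Its log2 fold change against PBS was 4.59 ± 0.25 with EGF (SE, edgeR adjusted p = 1.6e-12) and 3.85 ± 0.25 with OSM (adjusted p = 2.7e-11). Every EGF and EGF+OSM library lay above all others, the OSM, EGF+TGFB and EGF+OSM+TGFB libraries overlapped, and T0 and OSM+TGFB stood apart below them and above PBS and TGFB, which overlapped.

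Among the genes of mitotic entry, CCNB1 (cyclin B1) was at 13.9, 11.1 and 14.8 CPM in PBS, 204, 222 and 246 CPM with EGF and 131, 126 and 172 CPM with OSM. CDK1, its kinase, was at 8.13, 6.32 and 7.70 CPM in PBS, 104, 101 and 115 CPM with EGF and 62.1, 57.4 and 81.7 CPM with OSM. For both, the 3 groups did not overlap. Their log2 fold changes with EGF were 4.08 and 3.86. The other cyclins rose alike, CCNA2 by 4.51 and CCNB2 by 3.40, and the phosphatase CDC25C, which activates CDK1, rose by 3.43. With OSM the 5 genes of this role rose by 2.95 (CCNB2) to 3.71 (CCNA2).

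The transcription factors held the largest rise of the whole set. MYBL2 was at 3.50, 3.28 and 4.94 CPM in PBS, 149, 155 and 171 CPM with EGF and 78.4, 77.6 and 110.0 CPM with OSM. Its log2 fold change was 5.34 ± 0.24 with EGF (SE, edgeR adjusted p = 5.8e-14) and 4.51 ± 0.24 with OSM (adjusted p = 1.1e-12), the highest of the 49 genes in both comparisons. FOXM1 was at 6.98, 6.49 and 7.92 CPM in PBS, 130.0, 133 and 148 CPM with EGF and 70.5, 66.2 and 88.7 CPM with OSM, with log2 fold changes of 4.26 and 3.40. For both factors every OSM library lay between PBS and EGF.

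The mitotic kinases PLK1 and AURKA act at centrosomes and spindle poles. PLK1 was at 8.73, 7.25 and 9.92 CPM in PBS, 141, 153 and 169 CPM with EGF and 85.0, 80.3 and 104 CPM with OSM. AURKA was at 8.38, 8.91 and 9.14 CPM in PBS, 74.4, 82.2 and 89.5 CPM with EGF and 46.6, 43.2 and 56.5 CPM with OSM. Both rose with no overlap between groups, PLK1 by 4.16 and AURKA by 3.22 on the log2 scale with EGF.

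The spindle checkpoint delays anaphase until all chromosomes are attached. BUB1, a checkpoint kinase, was at 4.03, 2.96 and 4.35 CPM in PBS, 87.8, 89.6 and 99.5 CPM with EGF and 51.9, 47.3 and 71.2 CPM with OSM. TTK (MPS1), the kinase that starts the signal, was at 2.38, 1.60 and 2.52 CPM in PBS, 41.4, 39.2 and 46.0 CPM with EGF and 26.4, 23.0 and 34.7 CPM with OSM. MAD2L1 (MAD2), which inhibits CDC20, was at 7.38, 4.53 and 5.55 CPM in PBS, 68.5, 69.0 and 81.2 CPM with EGF and 34.5, 34.0 and 52.0 CPM with OSM. All 4 genes of this role rose, with EGF by 3.65 (MAD2L1) to 4.62 (BUB1) and with OSM by 2.79 to 3.92 in the same genes.

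The 7 centromere and kinetochore genes link chromosomes to spindle microtubules. CENPA, the histone that marks the centromere, was at 1.00, 0.690 and 1.15 CPM in PBS, 17.2, 17.5 and 18.5 CPM with EGF and 10.6, 9.90 and 13.3 CPM with OSM. CENPF, a large protein of the kinetochore corona, was at 28.0, 17.6 and 28.1 CPM in PBS, 298, 321 and 362 CPM with EGF and 249, 228 and 308 CPM with OSM, so that OSM and EGF overlapped. NDC80, which binds the microtubule, was at 1.98, 2.27 and 1.93 CPM in PBS, 26.7, 25.5 and 28.8 CPM with EGF and 16.1, 16.6 and 20.7 CPM with OSM. For CENPA and NDC80 every OSM library lay between PBS and EGF. Subunits of the same NDC80 complex rose by different amounts with EGF: SPC25 by 4.91, NUF2 by 4.48, NDC80 by 3.71 and SPC24 by 2.87 on the log2 scale. SPC25 is the sum of a pair of rows with mean counts of 192.5 and 96.3, whose values were identical in 1 of 27 libraries.

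The passenger complex, which corrects wrong attachments and later guides cytokinesis, spanned nearly the whole range of the set. AURKB was at 1.38, 1.38 and 1.20 CPM in PBS, 42.1, 39.6 and 44.5 CPM with EGF and 24.3, 21.6 and 28.6 CPM with OSM. BIRC5 was at 5.80, 3.43 and 5.57 CPM in PBS, 104, 116 and 127 CPM with EGF and 65.1, 58.9 and 87.0 CPM with OSM. INCENP was at 18.8, 18.4 and 20.2 CPM in PBS, 78.8, 85.4 and 85.3 CPM with EGF and 60.5, 53.2 and 67.8 CPM with OSM. The log2 rise with EGF was 4.99 ± 0.24 for AURKB and 2.12 ± 0.12 for INCENP (SE, edgeR adjusted p = 3.4e-14 and 1.3e-13), and INCENP was the smallest of all 49 genes with either ligand.

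All 8 genes grouped here as kinesins, proteins that act on spindle microtubules, rose with EGF, by 2.93 (KIF11) to 4.53 (KIF14). KIF11 (Eg5), which pushes the spindle poles apart, was at 15.5, 13.7 and 15.2 CPM in PBS, 106, 109 and 124 CPM with EGF and 67.6, 63.2 and 83.7 CPM with OSM. KIF20A (MKLP2), a motor of the late spindle, was at 11.0, 7.33 and 10.1 CPM in PBS, 137, 144 and 157 CPM with EGF and 135, 133 and 163 CPM with OSM. KIF20A thus reached the same range with OSM as with EGF, while KIF11 did not. KIF15 has a pair of rows with identical values in all 27 libraries; its summed level is therefore doubled, which leaves its fold changes as they are.

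Of the 6 genes of spindle assembly and bundling, TPX2, the activator of AURKA, was at 20.1, 19.1 and 22.6 CPM in PBS, 208, 232 and 253 CPM with EGF and 137, 133 and 163 CPM with OSM. NUSAP1 was at 48.9, 50.6 and 56.0 CPM with EGF and 34.2, 32.1 and 46.5 CPM with OSM, against the PBS values given above. TPX2 rose least of this role with EGF (3.49) and NUSAP1 most (4.89). DLGAP5, HMMR, ASPM and PRC1, all proteins of spindle microtubules, lay between, at 4.48, 4.04, 4.17 and 3.85.

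In chromosome condensation, SMC4 was at 36.7, 32.6 and 36.5 CPM in PBS, 177, 161 and 191 CPM with EGF and 109, 97.1 and 130.0 CPM with OSM. TOP2A, the topoisomerase that untangles sister DNA, was at 23.1, 17.8 and 24.3 CPM in PBS, 287, 296 and 332 CPM with EGF and 285, 266 and 329 CPM with OSM. The condensin I subunits NCAPG and NCAPH rose with EGF by 4.38 and 4.58, more than SMC4 (2.32), which condensin II also uses. The SMC4 groups did not overlap, while TOP2A overlapped between EGF and OSM.

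Genes of anaphase and exit rose too. CDC20, which activates the anaphase-promoting complex, was at 11.9, 10.9 and 14.1 CPM in PBS, 204, 208 and 238 CPM with EGF and 124, 115 and 162 CPM with OSM. PTTG1 (securin), the inhibitor of separase, was at 24.6, 23.6 and 26.5 CPM in PBS, 109, 119 and 132 CPM with EGF and 85.9, 85.9 and 104 CPM with OSM. ESPL1 (separase), which cuts cohesin, was at 4.83, 5.24 and 7.48 CPM in PBS, 42.8, 38.5 and 41.7 CPM with EGF and 27.7, 24.1 and 32.7 CPM with OSM. The log2 rise with EGF was 4.44 for UBE2C, the ubiquitin-conjugating enzyme of that complex, 4.14 for CDC20, 2.81 for ESPL1 and 2.27 for PTTG1.

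At cytokinesis, ANLN (anillin), a scaffold of the contractile ring, was at 11.6, 9.79 and 13.5 CPM in PBS, 256, 267 and 295 CPM with EGF and 153, 143 and 196 CPM with OSM. ECT2 was at 23.6, 22.9 and 22.2 CPM in PBS, 107, 106 and 117 CPM with EGF and 68.6, 66.1 and 87.0 CPM with OSM. ANLN rose by 4.55 and ECT2 by 2.27 on the log2 scale with EGF. ECT2, INCENP, SMC4 and PTTG1 were thus the 4 genes with the smallest rise with EGF.

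**Figure D3:**
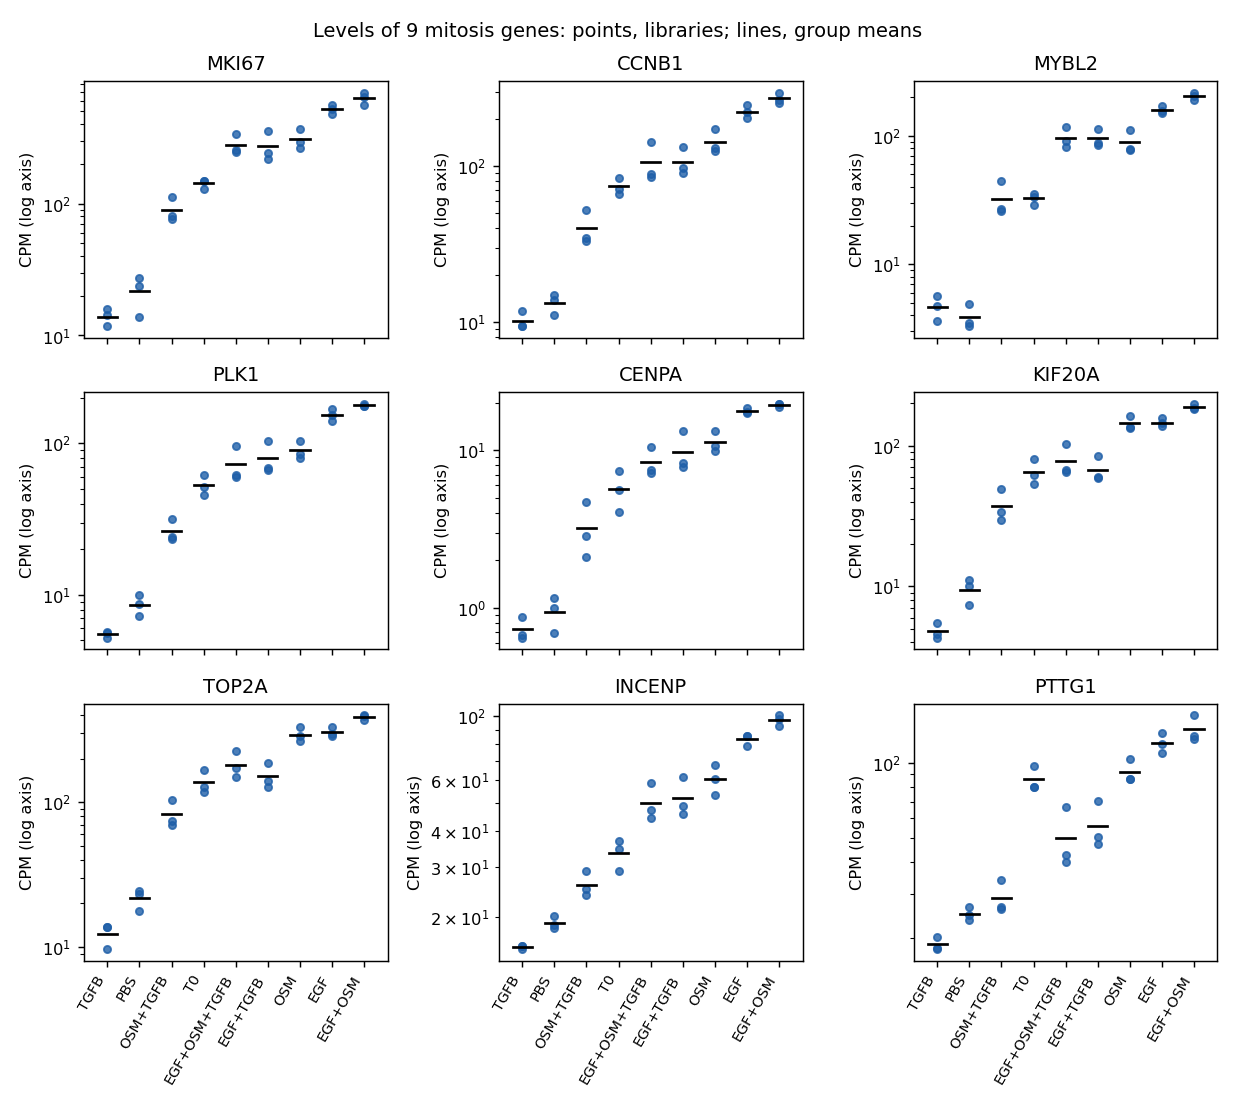
Levels of 9 mitosis genes (y axis, CPM on a log axis) in the 9 groups (x axis); points are libraries and lines are group means. MYBL2 spans the widest range and INCENP the narrowest, KIF20A and TOP2A overlap between OSM and EGF, and PTTG1 in EGF+TGFB and EGF+OSM+TGFB lies below T0.

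EGF held the genes above T0 as well as above PBS. Against T0, all 49 genes were called higher with EGF (edgeR), where 32.8% of all genes tested were higher, and the median gene was 1.56 log2 units, or 2.94-fold, above T0. The count was 49 without the libraries numbered 3. The rise was largest for MYBL2 (2.28 ± 0.19) and smallest for PTTG1 (0.48 ± 0.16, SE, edgeR adjusted p = 0.0131). PTTG1 was at 97.2, 80.2 and 80.1 CPM in T0 and at 109, 119 and 132 CPM with EGF, with no overlap. Without T0 replicate 2 or EGF replicate 3, PTTG1 was no longer called by edgeR, and the other 48 genes were called whichever of the 6 libraries was left out. CDC25C (0.68) and SPC24 (0.71) had the next smallest rises.

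OSM left most mitosis genes below their level with EGF. In the direct test, which uses no PBS library, 41 of 49 genes were lower with OSM (edgeR), where 28.8% of all genes tested were lower, and none was higher. The median gene lay at -0.65 on the log2 scale, 63.6% of its EGF level. The largest difference was that of KIF23 (MKLP1), a motor of the central spindle, at 103, 102 and 112 CPM with EGF and 54.2, 46.4 and 65.4 CPM with OSM (log2 fold change -0.93 ± 0.17, SE, edgeR adjusted p = 7.2e-05). Both transcription factors were lower, FOXM1 by 0.87 and MYBL2 by 0.84. The count was 45 without the libraries numbered 3, and 30 genes were called whichever of the 6 libraries was left out.

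The 8 genes not called were CDC25C, CENPF, DLGAP5, KIF20A, KIF4A, NUSAP1, PTTG1 and TOP2A. CDC25C was at 15.2, 16.5 and 16.5 CPM with EGF and 15.7, 15.0 and 20.0 CPM with OSM, a log2 difference of 0.07 with an interval from -0.23 to 0.37 (95%). For KIF20A the difference was -0.02 (-0.43 to 0.38) and for TOP2A -0.06 (-0.43 to 0.32). In these 3 genes the groups overlapped, and the intervals hold no difference as large as the set's median. The other 5 had differences from -0.46 (NUSAP1) to -0.32 (CENPF), and the interval of CENPF (-0.73 to 0.09) includes the median of the set.

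Adding OSM to EGF moved the mitosis genes little. Of 49 genes 1, CDC25C, was higher in EGF+OSM than in EGF (edgeR), where 17.8% of all genes tested were higher, and none was lower. CDC25C was at 22.3, 22.7 and 23.4 CPM with EGF+OSM, above every EGF library, a log2 difference of 0.50 ± 0.14 (SE, edgeR adjusted p = 0.00713). The median gene was 0.27 log2 units, or 1.21-fold, higher, 48 of 49 differences were above 0, and for 36 genes no EGF+OSM library overlapped with EGF, where 25.3% of all genes tested were higher with no overlap. The count of called genes was 18 without the libraries numbered 3. It was 33 when only these groups were fitted, where 17.0% of all genes tested were higher.

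EGF+OSM stayed far below the sum of the single responses. The departure, the log2 response to the pair minus the sum of the log2 responses to EGF and OSM, was below 0 for all 49 genes (edgeR), where 23.0% of all genes tested had a negative departure called. Its median was -3.25, from -4.16 ± 0.38 (SE) for NUSAP1 to -1.43 for each of SMC4, INCENP and ECT2. For MKI67, the single log2 responses of 4.59 and 3.85 stood beside a response that exceeded EGF alone by 0.29, and the departure was -3.56. The count was 49 without the libraries numbered 3.

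TGFB alone lowered some of these genes further from their low level in PBS, in a share not far above that of all genes. Of 49 genes 12 were lower and none higher (edgeR), where 15.8% of all genes tested were lower. The median gene lay at -0.42 log2 units, 74.6% of its PBS level, with 44 of 49 differences below 0. The 12 were AURKA, BUB1B, CDC20, CDC25C, CENPF, ESPL1, HMMR, KIF20A, NUF2, PLK1, SPC24 and TOP2A. HMMR, a microtubule-binding protein of spindle poles, had the largest difference, from 4.68, 3.28 and 4.79 CPM in PBS to 1.96, 1.90 and 2.29 CPM with TGFB (log2 fold change -1.05 ± 0.31, SE, edgeR adjusted p = 0.0108).

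KIF20A went to 5.53, 4.61 and 4.31 CPM (-0.97 ± 0.27), CDC25C from 1.68, 1.12 and 1.69 CPM to 0.731, 0.552 and 1.04 CPM (-0.95 ± 0.25), and TOP2A to 13.7, 9.70 and 13.7 CPM (-0.81 ± 0.21, SE). CENPF went from 28.0, 17.6 and 28.1 CPM to 16.8, 14.3 and 16.5 CPM, and ESPL1 to 2.40, 2.91 and 4.31 CPM. No TGFB library overlapped with PBS in these genes. At the other end MYBL2 stood at 4.72, 3.63 and 5.71 CPM with TGFB, within reach of PBS (0.26 ± 0.29, edgeR adjusted p = 0.53), and neither FOXM1, the 4 passenger-complex genes nor the cytokinesis genes ANLN and ECT2 were called.

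This count rests on single libraries. Without TGFB replicate 1 or 2 it was 6, without PBS replicate 3 it was 5, and without all libraries numbered 3 it was 17, and 5 genes (CDC25C, SPC24, KIF20A, HMMR and TOP2A) were called whichever of the 6 libraries was left out. Fitting only these groups or using DESeq2 gave 22.

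When EGF or OSM was present, TGFB lowered every mitosis gene. All 49 were lower in EGF+TGFB than in EGF (edgeR), where 27.7% of all genes tested were lower, with the median gene at -0.95 log2 units, 51.8% of its level with EGF. All 49 were lower in OSM+TGFB than in OSM, where 25.6% of all genes tested were lower, with the median at -1.77, or 29.4% of its level with OSM. All 49 were lower in EGF+OSM+TGFB than in EGF+OSM, where 29.5% of all genes tested were lower, with the median at -1.21, or 43.3%. No gene's groups overlapped in any of the 3 comparisons, where 31.2%, 27.1% and 31.7% of all genes tested were lower with no overlap, and each count was 49 without the libraries numbered 3.

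NUSAP1 had the largest fall under EGF and under OSM. It was at 17.0, 16.2 and 27.9 CPM with EGF+TGFB and at 6.40, 6.12 and 9.09 CPM with OSM+TGFB, against the EGF and OSM values above. Its log2 fold changes were -1.36 ± 0.23 and -2.38 ± 0.26 (SE, edgeR adjusted p = 4.0e-05 and 1.3e-07). ECT2 had the smallest, at 73.1, 65.8 and 85.6 CPM with EGF+TGFB and 32.9, 35.9 and 41.7 CPM with OSM+TGFB, and it fell by 0.56 and by 1.00 on the log2 scale (SE 0.11 for each). In EGF+OSM+TGFB against EGF+OSM the largest fall was that of MAD2L1, from 91.9, 89.4 and 105 CPM to 26.9, 24.0 and 34.7 CPM (-1.74 ± 0.19), and the smallest was that of ANLN, from 318, 313 and 333 CPM to 161, 143 and 210.0 CPM (-0.91 ± 0.17, SE). Every role moved in full, with role medians from -1.36 (mitotic entry) to -0.91 (cytokinesis) in that last comparison.

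For some of these genes TGFB had a larger effect with OSM than with EGF. The difference between its effects with OSM and with EGF, which share no library, was below 0 for all 49 genes and passed the test for 13 (edgeR), where 3.85% of all genes tested were called in that direction. Its median was -0.80 log2 units. NUSAP1 had the most negative value (-1.02 ± 0.34, SE) and was not called (edgeR adjusted p = 0.0778). CDC25C had the most negative called value (-1.01 ± 0.22, SE, edgeR adjusted p = 0.00417): TGFB lowered it from 15.7, 15.0 and 20.0 CPM to 4.41, 4.11 and 5.37 CPM under OSM, and from 15.2, 16.5 and 16.5 CPM to 8.58, 7.76 and 10.6 CPM under EGF. SPC24 (-0.97), ESPL1 (-0.94), UBE2C (-0.92) and CDCA8 (-0.88), a passenger-complex subunit also called borealin, came next. The other 8 were CCNB2, INCENP, KIF4A, KIF11, KIF18A, NCAPH, NUF2 and ANLN.

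The number called moved with single libraries and with the model fitted. It was 43 without OSM+TGFB replicate 3 and 32 without all libraries numbered 3, and only CDC25C and SPC24 were called whichever of the 12 libraries was left out. It was 2 without OSM+TGFB replicate 1 or 2, 4 without EGF replicate 1 or 2, EGF+TGFB replicate 3 or OSM replicate 3, and 6 without OSM replicate 1 or EGF replicate 3. DESeq2 called 20, and fitting only these 4 groups called 3.

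**Figure D4:**
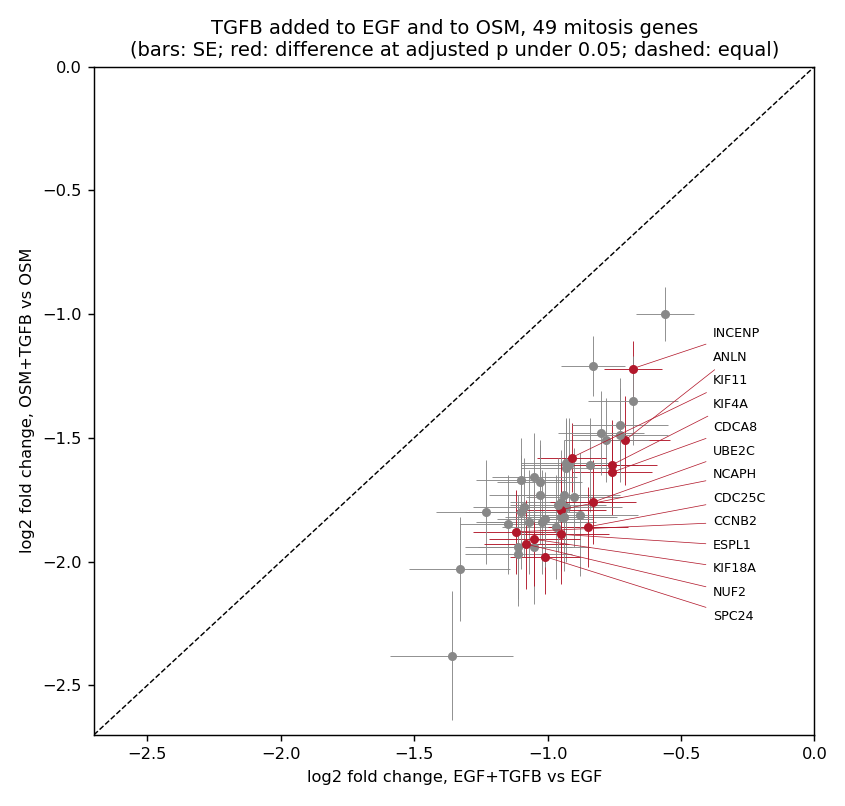
Log2 fold change on adding TGFB to EGF (x axis) and to OSM (y axis) for the 49 mitosis genes, with bars of 1 SE; the dashed line marks equal effects. All 49 points lie below the line, and the 13 labelled genes in red passed the test of the difference.

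Against PBS, the OSM+TGFB pair was the only treatment with OSM or EGF that did not raise all 49 genes. It raised 46 (edgeR), where 34.2% of all genes tested were higher, with the median gene at 1.74 log2 units, and the count was again 46 without the libraries numbered 3. The 3 others were SPC24 at 2.56, 2.64 and 3.48 CPM against 2.48, 2.70 and 2.83 CPM in PBS, PTTG1 at 26.1, 26.5 and 34.1 CPM, and ESPL1 at 6.88, 6.15 and 9.70 CPM. Their log2 differences were 0.11 (-0.24 to 0.47), 0.22 (-0.16 to 0.59) and 0.37 (-0.09 to 0.84), with 95% intervals. EGF+TGFB and EGF+OSM+TGFB raised all 49, where 36.2% and 37.7% of all genes tested were higher, by a median of 3.15 and 3.08, and so did EGF+OSM (37.6% of all genes tested), by 4.36; each of these counts was 49 without the libraries numbered 3. MYBL2 had the largest rise in each of these, at 4.61, 4.62 and 5.71, while the smallest was that of PTTG1 with EGF+TGFB (1.17) and with EGF+OSM+TGFB (1.00) and that of INCENP with EGF+OSM (2.35).

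The departures of the pairs with TGFB differed in number. For OSM+TGFB, 45 of 49 genes fell short of the sum of the single log2 responses (edgeR), where 13.7% of all genes tested were called below it, with a median of -1.26. The 4 not called were BUB1B, DLGAP5, HMMR and NUSAP1, and the strongest was SPC25 (-1.83 ± 0.46, SE, edgeR adjusted p = 0.00511). For EGF+TGFB, 10 genes fell short, where 16.5% of all genes tested were called below the sum, so that their share was near that of all genes, with a median of -0.51, and CCNA2 had the most negative value (-1.07 ± 0.33, SE, edgeR adjusted p = 0.0177). The others were ANLN, ECT2, FOXM1, KIF11, KIF23, MYBL2, PTTG1, SMC4 and TPX2. Since both departures hold the TGFB and PBS libraries, the gap between them equals the difference in TGFB effects tested above.

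The departure count for OSM+TGFB was 46 without the libraries numbered 3. For EGF+TGFB it was 17, with all 10 genes among them, but 2 without PBS replicate 2, 3 without EGF+TGFB replicate 1 or 2, EGF replicate 3 or TGFB replicate 3, 4 without TGFB replicate 1 and 6 without PBS replicate 1. SMC4 and ECT2 were called in each case.

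**Figure D5:**
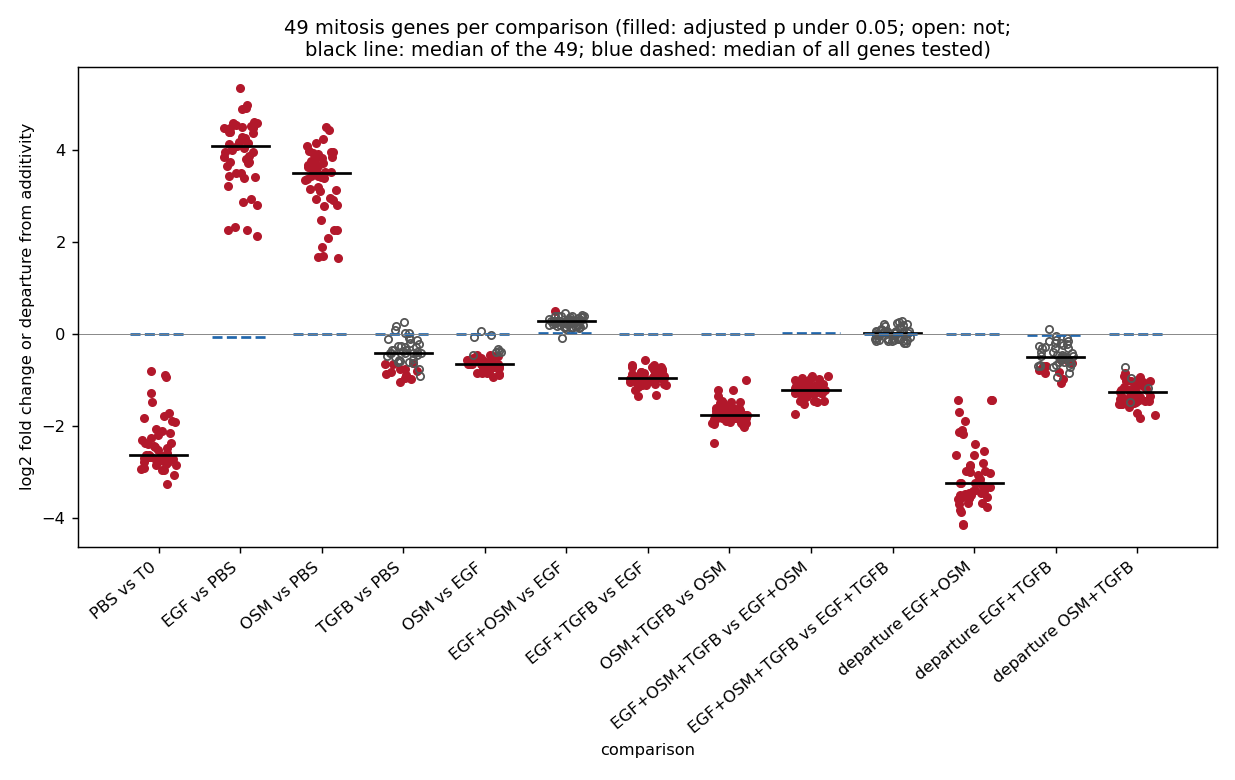
Log2 fold change or departure from additivity of the log2 responses (y axis) of each of the 49 mitosis genes in 13 comparisons (x axis). Filled points passed an adjusted p under 0.05, black lines are medians of the 49 genes and blue dashed lines medians of all 15575 genes. The whole set lies above 0 for EGF and OSM against PBS and below 0 where TGFB was added to EGF, OSM or both, while EGF+OSM+TGFB against EGF+TGFB straddles 0.

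Neighbouring groups in the order of levels were then compared, a choice made after the levels were seen. In EGF+OSM+TGFB against EGF+TGFB 0 of the 49 genes were called by edgeR and 0 by DESeq2, where edgeR called 26.4% of all genes tested, and 0 had an unadjusted p under 0.05 by edgeR. The differences ran from -0.20 (CENPA) to 0.27 (TOP2A), with a median of 0.01, and the interval for MKI67 was -0.40 to 0.49 (95%). Leaving out EGF+OSM+TGFB replicate 3, or all libraries numbered 3, gave 1 gene lower. OSM exceeded EGF+TGFB for 14 genes (edgeR), where 31.8% of all genes tested were higher. Their share was near that of all genes, so the count is no result about the mitosis genes. The largest difference was that of KIF20A (1.09 ± 0.20, SE, edgeR adjusted p = 7.4e-05), at 59.6, 58.8 and 84.5 CPM with EGF+TGFB. The count of 14 became 8 without OSM replicate 3 or EGF+TGFB replicate 2, 27 without EGF+TGFB replicate 3, and 23 without all libraries numbered 3.

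OSM+TGFB left 44 of 49 genes below T0 (edgeR), where 32.8% of all genes tested were lower, with the median gene at -0.78 log2 units. The 5 others were AURKB, ECT2, KIF23, MYBL2 and SPC25. MYBL2 was at 25.9, 27.1 and 44.3 CPM with OSM+TGFB and 33.5, 29.0 and 34.9 CPM in T0, so that the groups overlapped, and SPC24 had the largest shortfall (-2.04 ± 0.15, SE). Without the libraries numbered 3, all 49 were lower.

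Other genes of the pathway were counted in lists written by function. Beside the counts below, 34.9% of all genes tested were higher and 38.6% lower with EGF, and 33.5% were higher with OSM (edgeR). Of 16 further spindle and cytokinesis genes all 16 rose with EGF (median 3.36 log2 units) and with OSM (2.94), and of 25 DNA replication genes all 25 rose with each (medians 3.01 and 2.17). Of 19 further kinetochore and checkpoint genes 18 rose with EGF (median 2.75), and of 17 genes of the constitutive centromere network 16 rose (2.59), led by HJURP, the chaperone that loads CENPA (4.97). PMF1, of the kinetochore list, and CENPC, of the centromere list, were not called with EGF (-0.02 and 0.09). The median of all genes tested was -0.07 in that comparison. The core subunits of the anaphase-promoting complex, present through much of the cell cycle, moved less: 12 of 14 rose and 1 fell with EGF, with a median of 0.44. Of 14 other condensin and cohesin subunits 13 rose and 1 fell (median 1.01), led by CDCA5 (sororin) at 4.35.

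All 25 replication genes were lower with OSM than with EGF, where 28.8% of all genes tested were lower, with a median of -0.93 log2 units, beside -0.65 for the mitosis genes. TGFB lowered all 25 under EGF and under OSM, where 27.7% and 25.6% of all genes tested were lower, with medians of -0.94 and -1.16, beside -0.95 and -1.77 for the mitosis genes. The difference in TGFB effect between OSM and EGF had a median of -0.27 for the replication genes with none called. It was -0.76 for the further spindle and cytokinesis genes with 4 of 16 called. For the mitosis genes it was -0.80 with 13 of 49 called, where 3.85% of all genes tested were called (edgeR). Other mitotic lists lay near the replication genes: -0.28 for the further kinetochore and checkpoint genes (1 of 19 called) and -0.26 for the centromere network (1 of 17). The 12 CDK1 regulators had a median of -0.28 with 0 called. The other condensin and cohesin subunits (0.05) and the anaphase-promoting complex (-0.01) also had 0 called. Some list members went the other way: CENPT, of the centromere network, rose when TGFB was added to EGF (0.66), to OSM (0.48) and to both (1.07), and the checkpoint gene MAD1L1 rose under EGF (0.26) and under OSM (0.23). These medians are descriptions and the lists were not tested against each other.

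Among regulators upstream of mitosis, the MuvB and DREAM list was mixed: 7 of 11 rose and 2 fell with EGF, from RBL2 (p130, a resting-cell pocket protein) at -0.73 to RBL1 (p107) at 2.37. PKMYT1, which holds CDK1 inactive, had the largest rise of 12 CDK1 regulators with EGF (5.24). FZR1 (CDH1), which directs the anaphase-promoting complex against mitotic cyclins in G1, went the other way from the mitosis genes when TGFB was added, from 55.7 ± 3.08 to 109 ± 9.09 CPM under EGF and from 60.7 ± 4.28 to 102 ± 1.22 CPM under OSM (SD, n = 3). Its log2 fold changes were 0.98 and 0.75 (edgeR adjusted p = 2.0e-11 and 3.0e-09). CDKN1A (p21), a CDK inhibitor, stood at 478 ± 35.7 CPM in PBS, 230.0 ± 28.3 CPM with EGF and 459 ± 61.5 CPM with EGF+TGFB, a rise of 1.00 on the log2 scale over EGF (edgeR adjusted p = 4.9e-07). The other CDK inhibitors did not all move that way. From EGF to EGF+TGFB, CDKN2D rose by 0.89, while CDKN1C went from 12.5 ± 1.65 to 6.73 ± 1.12 CPM, CDKN2C from 9.40 ± 0.798 to 5.78 ± 0.878 CPM and CDKN1B from 23.6 ± 0.795 to 18.6 ± 0.720 CPM (SD, n = 3), all 3 called lower (edgeR). Of the 10 genes tested in the list of G1 cyclins and CDK inhibitors, 3 were higher and 5 lower in that comparison. Among all genes tested, 27% were higher and 27.7% lower, so the 3 higher genes are near the share of all genes.

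Cyclin D1 (CCND1), which acts in G1, did not follow the mitosis genes. It was at 227 ± 12.4 CPM with EGF, 239 ± 15.7 CPM with EGF+TGFB, 40.5 ± 9.31 CPM with OSM and 42.0 ± 1.42 CPM in PBS (SD, n = 3). CCND1 was thus 2.44 log2 units above PBS with EGF, was not called with OSM (-0.06, edgeR adjusted p = 0.741), and did not change detectably when TGFB was added to EGF (0.07, edgeR adjusted p = 0.661). Cyclin E2 (CCNE2) did follow them, at 1.08 ± 0.0848 CPM in PBS, 19.0 ± 1.68 CPM with EGF, 8.04 ± 2.57 CPM with OSM and 3.33 ± 0.664 CPM with OSM+TGFB.

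Marker lists of other cell types differed between groups as well. The summed fibroblast list was at 129 to 133 CPM in PBS, 30.9 to 35.9 CPM with EGF, 204 to 214 CPM with TGFB and 13.1 to 15.3 CPM with EGF+OSM. With TGFB added it was at 76.5 to 96.9 CPM (EGF+TGFB), 176 to 191 CPM (OSM+TGFB, against 87.8 to 110.0 CPM with OSM) and 50.1 to 59.4 CPM (EGF+OSM+TGFB), nearly all of it from COL1A1 and DCN, while COL3A1 was near 0. The summed list of luminal mammary markers was at 284 to 298 CPM in PBS, 143 to 179 CPM with EGF, 167 to 190.0 CPM with OSM and 148 to 180.0 CPM with EGF+OSM. With TGFB added it was at 379 to 535 CPM (EGF+TGFB), 551 to 611 CPM (OSM+TGFB) and 668 to 727 CPM (EGF+OSM+TGFB). It was thus higher in every library with TGFB added than in the matching group without it. KRT8 carried nearly all of this sum, at 128 to 714 CPM over all libraries, with GATA3 at 10.4 to 28.8 CPM. ESR1, PGR, ELF5 and PRLR were at or below 3.42, 0.0313, 0.109 and 1.04 CPM. The summed basal list was higher with TGFB as well. It was at 15400 to 16500 CPM with EGF and 32100 to 37400 CPM with EGF+TGFB. It was at 23300 to 23700 CPM with OSM and 37700 to 40900 CPM with OSM+TGFB. With EGF+OSM it was at 15600 to 19100 CPM, and at 41900 to 46800 CPM with EGF+OSM+TGFB. The summed list of general epithelial markers rose in the same comparisons. The summed immune list was at 54.4 to 61.3 CPM in PBS, 26.1 to 29.8 CPM with EGF and 96.4 to 119 CPM with OSM, from CD14 and CD68, with PTPRC and CD3E near 0. The summed endothelial list was at 31.3 to 35.3 CPM in PBS and 1.54 to 2.02 CPM with EGF, where KDR carried most of the PBS level and CDH5 was near 0. Their part in the results for the mitosis genes was not tested.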

How the data were processed

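The deposited table holds estimated counts per gene for 27 libraries (stranded polyadenylated-RNA kit, per the labels' protocols). The submitters' processing notes name Trim Galore 0.4.3, cutadapt 1.10, FastQC 0.11.5, kallisto 0.46.2, R 3.5.0 and the builds GRCh38.p5 and hg38, without roles. The authors' values were whole numbers already, so rounding changed nothing, and sample columns left unused numbered 0. Of 40487 rows, 7165 without a symbol (0.324% of the counts) stayed in the tests under their own identifiers.

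Rows sharing a symbol were summed over the whole table. Tests used edgeR 4.0.16 in R 4.3.3 (filterByExpr by group, TMM factors 0.867 to 1.12, robust quasi-likelihood fit with 1 mean per group, 18 residual degrees of freedom, biological coefficient of variation 7.83%, prior count 0.125), with Benjamini-Hochberg adjustment over 15575 genes and calls at an adjusted p under 0.05. Values are mean ± SD over 3 libraries, and 95% intervals are the log2 value ± its SE times the t quantile at 18 degrees of freedom. The pipeline was tested on simulated data. The 18 planned comparisons and 3 added ones were recomputed with other scalings, without the filter, with DESeq2 1.42.0, at 2-fold, on rows as deposited, on only the groups compared, with a replicate block, without each library, and without replicate 3 throughout (chosen after seeing the data). The median library total was 39530985 counts.

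The genes and lists were chosen with earlier results of these data known. Values by library are given for a set of genes named by role, and for the extremes and exceptions of each comparison. An Ensembl identifier of each of the 49 genes matched GENCODE version 44, while the further rows of KIF15 and SPC25 carried identifiers without a match. Promoter sequences are from RefSeq; the 6 genes without an entry are TTK, FOXM1, UBE2C, AURKA, TPX2 and BIRC5. Levels are not per length, and levels of the mitosis genes were not compared between genes.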

Additional observations from a re-analysis of the deposited data

Results flagged for a closer look

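Responses to a ligand differed by what else was present in 4 tests (edgeR). All 49 mitosis genes departed below additivity of the log2 responses for EGF+OSM, where 23.0% of all genes tested did. For OSM+TGFB 45 did, where 13.7% of all genes tested did. For EGF+TGFB 10 genes did, where 16.5% of all genes tested did, a share too near that of all genes to be a result about the mitosis genes, and the count was 2 without PBS replicate 2. TGFB lowered 13 genes more with OSM than with EGF, where 3.85% of all genes tested had a difference called below 0. Leaving out 1 library moved the count of 13 between 2 (OSM+TGFB replicate 1 or 2) and 43 (OSM+TGFB replicate 3).

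Those 13 log2 differences were -1.01 for CDC25C, -0.97 for SPC24, -0.94 for ESPL1, -0.92 for UBE2C, -0.88 for CDCA8, -0.86 for KIF18A, -0.85 for NUF2, -0.85 for KIF4A, -0.84 for NCAPH, -0.81 for ANLN, -0.76 for CCNB2, -0.67 for KIF11 and -0.54 for INCENP. The remaining 36 genes had values of the same sign that did not pass the adjusted test. In OSM, OSM+TGFB and EGF+TGFB, which enter this difference, replicate 3 was the highest library for all 49 genes. Without the libraries numbered 3 the count was 32, and 12 of the 13 genes were among them. With the replicate number as a block in the fit it was 45, where 6.62% of all genes tested were called below 0.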

How the results depend on the processing

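Of 49 genes, the counts for EGF, OSM and their combinations against PBS (46 for OSM+TGFB, 49 otherwise), for EGF or PBS against T0, for TGFB added to OSM or to EGF+OSM, and for the EGF+OSM and OSM+TGFB departures stayed within 1.5 times of the reported count under every setting run. Their ranges with libraries left out were 48 to 49 for EGF against T0, 46 to 47 for OSM+TGFB against PBS and 31 to 48 for the OSM+TGFB departure. The smaller differences moved more, and the cause was not tested where the setting itself does not give it.

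Percentages in brackets below are the shares of all genes tested that were called in the same direction under the same setting. They are not given for libraries left out. For TGFB against PBS the count of 12 became 1 at 2-fold (1.72%), 22 with only those groups fitted (18.9%) and 22 with DESeq2 (17.1%). It was 5 to 17 with libraries left out. OSM against EGF (41) became 0 at 2-fold (4.78%), and 30 to 45 with libraries left out. EGF+OSM against EGF (1) became 0 at 2-fold (2.7%), 33 with only those groups (17.0%) and 2 with DESeq2 (17.1%), and 1 to 18 with libraries left out. EGF+TGFB against EGF (49) became 20 at 2-fold (4.13%). The EGF+TGFB departure (10) became 1 at 2-fold (2.74%), 3 without the filter (7.39%), 19 with only those groups (22.4%) and 17 with DESeq2 (17.9%). It was 2 to 17 with libraries left out. The difference in TGFB effects (13) became 1 (0.668%), 4 (2.09%), 3 (2.99%) and 20 (4.25%) in the same order, and 2 to 43 with libraries left out. OSM above EGF+TGFB (14) became 1 at 2-fold (9.12%), and 8 to 27 with libraries left out, with 0 to 2 lower. OSM+TGFB below T0 (44) became 11 at 2-fold (11.2%), and 35 to 49 with libraries left out. EGF+OSM+TGFB below EGF+TGFB (0) became at most 1.

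With the replicate number as a block, the counts were 22 for TGFB against PBS (18.3% of all genes tested), 20 for EGF+OSM against EGF (21.2%) and 20 for the EGF+TGFB departure (19.7%). They were 45 for the difference in TGFB effects (6.62%), and 27 higher and 1 lower for OSM against EGF+TGFB (33.5% and 29.8%). The block moved no other count by over 1.5 times. The labels give no shared source for a number. Over 108 pairs with the same number the deviations correlated at 0.0626 on average (-0.0265 to 0.178), 23 pairs being over 0.1, and 26 of 27 libraries correlated best with their own number, a hint from the data and not the design.

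Signs reversed in 31 values near 0, none of a called gene. SPC25 with TGFB was -0.02 with upper-quartile scaling, 0.00 with DESeq2 factors, -0.01 without the filter and 0.00 with DESeq2, and ECT2 with TGFB was 0.00 with upper-quartile scaling. With libraries left out, the ranges with TGFB were -0.37 to 0.24 for SPC25, -0.03 to 0.20 for ANLN and -0.04 to 0.05 for ECT2. SPC24 with OSM+TGFB ranged from -0.04 to 0.20. In OSM against EGF the ranges were -0.07 to 0.15 for CDC25C, -0.13 to 0.03 for KIF20A and -0.15 to 0.01 for TOP2A. In the EGF+TGFB departure they were -0.10 to 0.36 for CDC25C, -0.36 to 0.00 for NUF2, -0.39 to 0.03 for KIF4A, -0.34 to 0.01 for KIF20A, -0.15 to 0.12 for HMMR and -0.30 to 0.18 for ESPL1.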
